A study of Rattus norvegicus with 18 samples.

Results

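The fracture callus of adult rats was compared with that of young rats at the same times after fracture. The comparison took 10 of the 18 arrays in the series: 5 of adult rats and 5 of young rats, 1 of each age at 3 days, 1 week, 2 weeks, 4 weeks and 6 weeks, paired by time. They were chosen by age and time alone, and no measured value was used. All animals were intact female Sprague-Dawley rats with a closed mid-diaphyseal fracture of a femur held by an intramedullary rod, and at fracture young rats were 6, adult rats 26 and older rats 52 weeks old. Each array held the RNA of 2 rats pooled, from a middle segment of the femur, so that callus, cortical bone and marrow were measured together. The 0 time control of each age was 1 array of sham-operated bone with no fracture, although the label for the young rats also calls its tissue callus. The 5 arrays of the older rats after fracture entered the fit only to estimate the spread.

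A fracture heals through an inflammatory stage, a callus of cartilage and fibrous tissue, its replacement by bone, and remodelling by osteoclasts. Marrow, with its red cell, granulocyte and mast cell lineages, is lost from the fracture site and returns later, and muscle attached to the bone is torn and regenerates. In rats, bridging of the fracture slows with age.

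The values are signals on a linear scale, which the authors scaled so that each array had a trimmed mean near 500 units. Signals under 20 were set to 20 and differences are given as log2, adult minus young, so that a positive value is higher in adult rats. There was 1 array for each age and time, and the 5 times stood in for replicates. The p-values below therefore set an age difference against the spread across times. That spread was estimated with the arrays of the older rats included, and for a phase of healing it was pooled over both phases. A low p thus does not by itself show that the difference between adult and young rats was steady across times. The 5 pairs alone could not give an exact two-sided p under 0.0625. Bulk tissue was measured, so fewer cells of a type and less RNA per cell cannot be told apart.

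The arrays of 1 age differed in how evenly the probes covered a transcript. The ratio of the 3' to the 5' signal of the Gapdh control probe sets rises when RNA is broken or copied short. In young rats it was 1.497, 1.33 and 1.77 at the first 3 times, and then 3.48 at 4 weeks and 6.57 at 6 weeks. In adult rats it stayed between 1.28 and 1.83. The young arrays at 4 and 6 weeks thus stood above all 16 other arrays of the series, whose highest ratio was 1.83. For 1 transcript the gap was large. At 6 weeks the 3' Gapdh probe set gave 13538 in young and 16265 in adult rats, a log2 difference of 0.26, whereas the 5' probe set of the same gene gave 2062 and 8894, a log2 difference of 2.11. Beta-actin moved the same way, with ratios of 2.29 at 4 weeks and 3.06 at 6 weeks in young rats against 1.48 to 2.12 in adult rats. The medians of the lists described at length, their counts of genes past an unadjusted p under 0.05, and most differences over the 5 times are therefore given again from a fit without the 4- and 6-week arrays of all ages. In that fit no probe set was called, and 2.39% of all probe sets had an unadjusted p under 0.05 higher in adult and 2.76% higher in young rats.

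**Figure D1:**
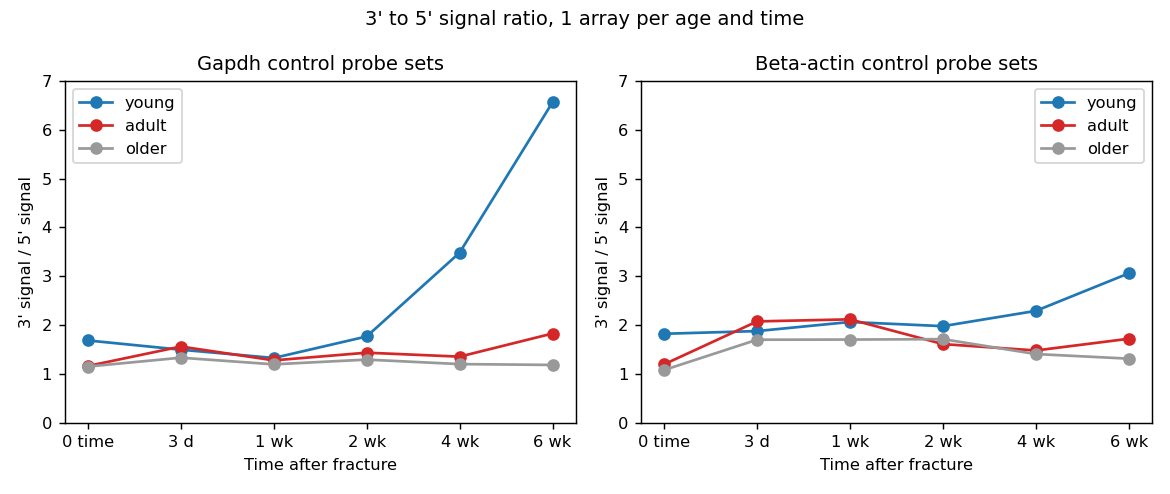
Ratio of the 3' to the 5' signal of the Gapdh (left) and beta-actin (right) control probe sets on each array, by time after fracture, with 1 point for each array of young, adult and older rats. The young points at 4 and 6 weeks lie at 3.48 and 6.57 for Gapdh, above the 16 other arrays.

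The 2 ages differed most before fracture. Among 2563 genes whose mean signal reached 200, 660 (25.8%) differed at least 2-fold between the 0 time controls, against 104 (4.06%), 89 (3.47%) and 181 (7.06%) at the first 3 times after fracture, 157 (6.13%) at 4 weeks and 221 (8.62%) at 6 weeks. The standard deviation of the log2 differences over these genes was 0.93 at 0 time and between 0.42 and 0.64 afterwards. Before fracture, all 19 genes of fibrous matrix, all 13 of bone matrix and osteoblasts and all 26 of the secretory pathway and collagen folding were higher in young rats, with median log2 differences of -1.36, -1.14 and -0.86. Cell cycle genes were higher in young rats for 24 of 28 (median -1.04). In contrast, 33 of 36 genes of mitochondrial respiration and 32 of 33 genes of skeletal muscle fibres were higher in adult rats, with medians of 1.00 and 1.10. The median over all 8740 probe sets was 0.10. With 1 control array per age, these values have no replicate check.

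After fracture these group differences were small. The bone matrix median lay between -0.30 and -0.11 at the 5 times, the fibrous matrix median between -0.13 and 0.47, and the median of mitochondrial respiration between -0.17 and 0.19. Col1a1, the main collagen of bone, gave signals of 27788 at day 3, 18093 at week 1, 29888 at week 2, 27757 at week 4 and 33307 at week 6 in young rats. The adult signals were 23984, 21039.7, 30029, 25811 and 29451 at the same times. Its 2 ages crossed from time to time, and the log2 difference over the 5 times was -0.05 ± 0.11 (SE). Other groups did differ after fracture, at some times more than at others, and they are taken up below.

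**Figure D2:**
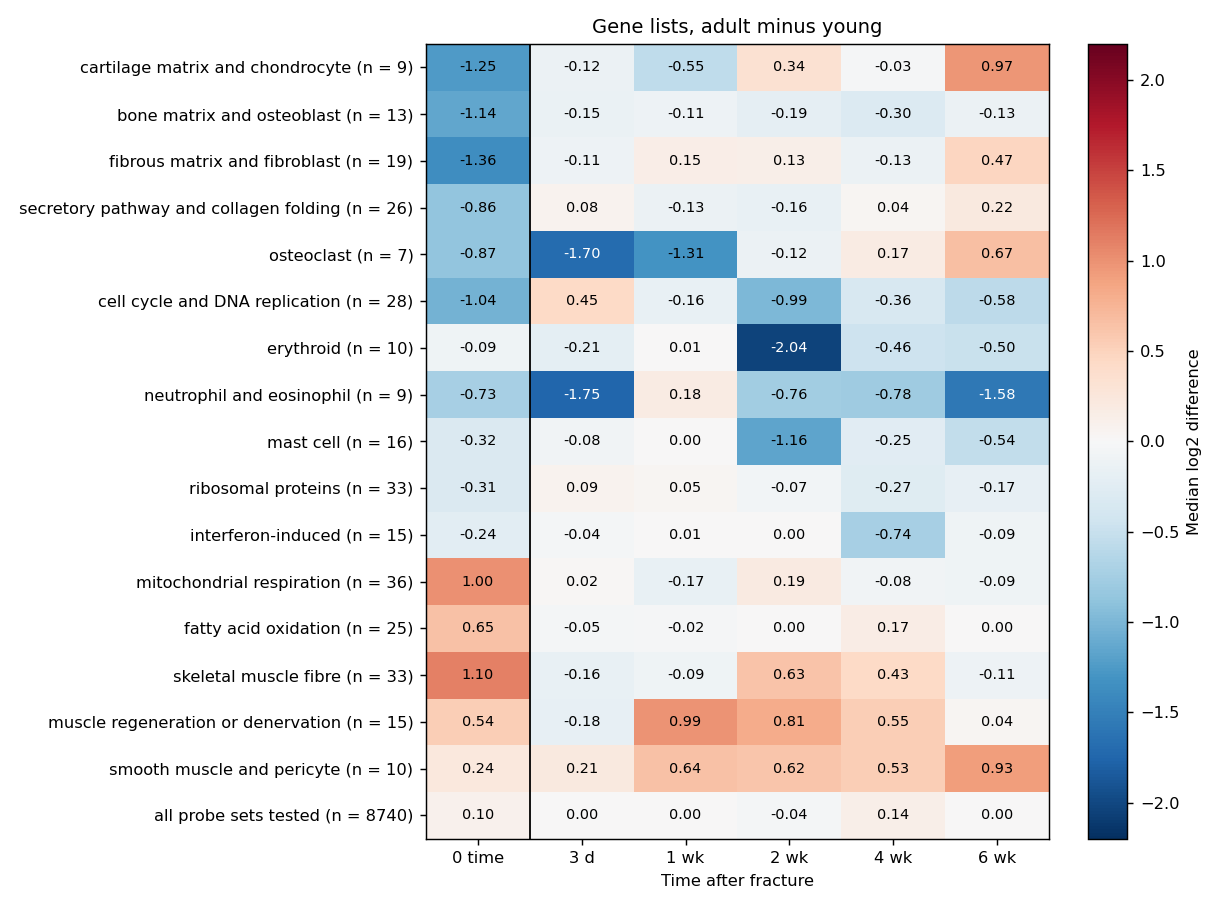
Median log2 difference (adult minus young) over the measured genes of 16 lists and over all probe sets, by time after fracture, with 1 array per age and time; red is higher in adult and blue higher in young rats. The matrix, cell cycle, mitochondrial and muscle fibre lists depart most at 0 time, the osteoclast list at 3 days (-1.70) and 1 week (-1.31), the neutrophil and eosinophil list at 3 days (-1.75), and the erythroid list at 2 weeks (-2.04).

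Over all 5 times together, no probe set passed the test. By limma with Benjamini-Hochberg adjustment, 0 of 8740 probe sets (0%) reached an adjusted p under 0.05, and the methods' t-test gave 0 as well after the same adjustment. At an unadjusted p under 0.05 there were 394 probe sets higher in adult rats (4.51%) and 341 higher in young rats (3.90%), and the methods' t-test gave 167 and 90 on log2 signals and 187 and 95 on linear signals. The same direction at all 5 times was seen for 374 probe sets higher in adult rats (4.28%) and 294 higher in young rats (3.36%). The 10 genes next described had the lowest p in each direction among genes of steady direction and a mean signal of at least 200. None was called, and each had an adjusted p of 0.326.

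Of the 5 genes highest in adult rats by that measure, several are known from striated muscle. Rrad, a small Ras-related GTPase of muscle, gave 853 at day 3, 978 at week 1, 419 at week 2, 268 at week 4 and 381 at week 6 in young rats. The corresponding adult values were 4145, 2807, 2682, 611 and 894 at the same times. The adult value was above the young value of its time throughout, with the smallest log2 difference at 4 weeks (1.19), although the 2 sets of values overlapped. The mean log2 difference was 1.78 ± 0.37 (SE) with an unadjusted p of 9.18e-04 by limma. Casq2, a calcium-binding protein of the sarcoplasmic reticulum, gave 178, 232, 357, 299.8 and 276 in young and 199.6, 479.9, 747, 519 and 409 in adult rats, a log2 difference of 0.73 ± 0.14 (SE). The others had smaller differences: 0.35 for Plec, a protein that links cytoskeletal filaments, 0.39 for Selenow, a selenoprotein abundant in muscle, and 0.52 for Ece1, which activates endothelin. Without the 4- and 6-week arrays the log2 differences were 2.16 for Rrad, 0.76 for Casq2, 0.26 for Plec, 0.32 for Selenow and 0.62 for Ece1, with unadjusted p between 6.26e-04 and 0.0232. These genes, and the 5 described next, were picked for having 1 direction at all 5 times. Their direction in the fit without 4 and 6 weeks was therefore fixed beforehand. Its p-values also reuse pairs of arrays by which the genes were ranked.

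The 5 genes highest in young rats by the same measure had varied roles. Paip1, which binds the poly(A)-binding protein in translation, gave 420.0, 410.3, 400.5, 491 and 622 in young and 281, 291, 297, 369 and 281 in adult rats in order of time, and its 2 ages did not overlap. Its log2 difference was -0.61 ± 0.11 (SE). Ncoa4, which delivers ferritin for breakdown and so frees iron, gave 398 at day 3, 611 at week 1, 1016 at week 2, 1609.7 at week 4 and 1869.5 at week 6 in young rats. In adult rats it gave 298, 406, 294, 804 and 988, and the gap was widest at 2 weeks, at a log2 difference of -1.79. Casp2, a caspase, gave 524, 807, 705, 1962 and 1793 in young and 338, 476, 483, 886 and 685 in adult rats, a log2 difference of -0.89 ± 0.18 (SE). Rps24, a ribosomal protein, and Ccdc88c differed by -0.74 and -0.32. Without the 4- and 6-week arrays the log2 differences of the 5 genes were -0.50 for Paip1, -0.93 for Ncoa4, -0.65 for Casp2, -0.83 for Rps24 and -0.30 for Ccdc88c. The lowest unadjusted p among them was then 1.60e-04, for Casp2, and the highest 0.0222, for Ncoa4.

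**Figure D3:**
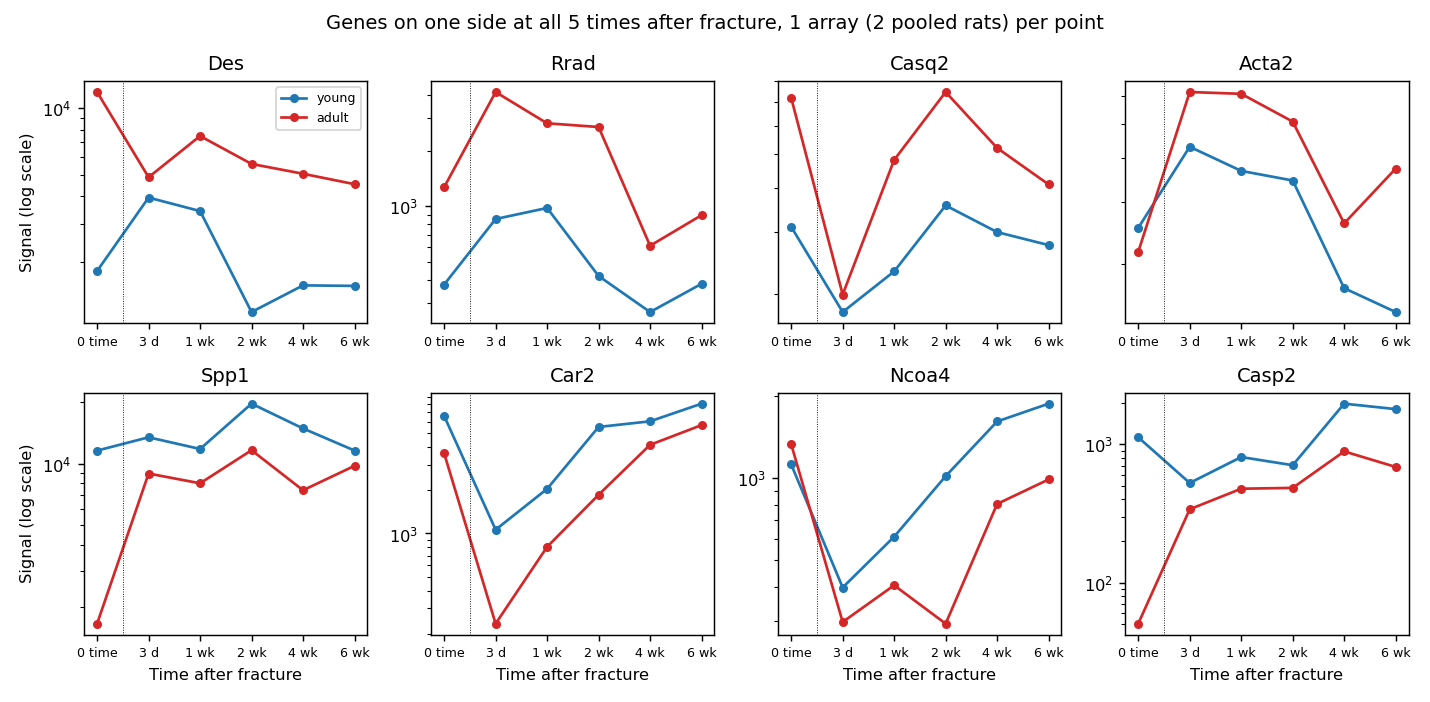
Signal on a log scale against time after fracture for 8 genes that lay on one side at all 5 times, young rats in blue and adult rats in red, 1 array per point with no error bar. Des, Rrad, Casq2 and Acta2 (top) are higher in adult rats and Spp1, Car2, Ncoa4 and Casp2 (bottom) higher in young rats at every time after fracture; the dotted line parts the 0 time control.

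More broadly, of the 735 probe sets with an unadjusted p under 0.05 over the 5 times, 734 had the same direction without the 4- and 6-week arrays, and 214 of these again had an unadjusted p under 0.05. Those 3 times are part of both counts, so the shared direction is in part built in. Of the 214, 122 were higher in adult and 92 higher in young rats.

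Genes of osteoclasts, the cells that resorb bone and cartilage, lay lower in adult rats early in healing, and their median was not lower at 4 and 6 weeks. Of 7 measured, all 7 were lower over 3 days to 2 weeks, and 5 had an unadjusted p under 0.05 in that direction (background 2.89%), with a median log2 difference of -1.21 against 0.00 for all probe sets. In the fit without the 4- and 6-week arrays 3 of the 7 had such a p. Over the 5 times the median was -0.49, and it was -0.21 without 3 days and -0.29 without 1 week. At 4 and 6 weeks the median was 0.34, a value that rests on the young arrays with raised Gapdh ratios. In that phase 1 gene had an unadjusted p under 0.05 higher in adult rats (background 8.66%) and 1 lower (background 4.57%). The difference between the phases was called for 0 of the 7. For 3 of them it had an unadjusted p under 0.05 by limma, toward adult rats at the later times (572 of 8740 over all probe sets). Acp5, the tartrate-resistant acid phosphatase, gave 4479 at day 3, 11208 at week 1, 18449 at week 2, 11224 at week 4 and 7937 at week 6 in young rats. The adult signals were 738, 3574, 16956, 11336 and 12628, so that the difference was -2.60 at 3 days on the log2 scale, -1.65 at 1 week and -0.12 at 2 weeks. Ctsk, the cathepsin that cleaves bone collagen, followed the same course, with 7028, 14051, 18875, 12572 and 8733 in young and 2170.0, 7017, 15249.9, 14192 and 17161 in adult rats. At 2 weeks the log2 difference of Ctsk was -0.31, so both genes had come close to the young value by then. Mmp9, a gelatinase of osteoclasts and other cells, was 2623 in young and 194 in adult rats at 3 days, and 9449.7 and 11985 at 2 weeks. Calcr, the calcitonin receptor, was lower in adult rats at all 5 times, at low signals of 15.3 to 63.2 in adult and 47.8 to 118 in young rats. None of these 4 had an adjusted p under 0.05. Before fracture, 6 of the 7 were already higher in young rats, with Acp5 at 6308 against 1185.

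Car2 and Slc40a1 gave the only 2 probe sets (0.0229% of 8740) that passed the test over 3 days to 2 weeks, both lower in adult rats. Car2, the carbonic anhydrase that supplies acid in osteoclasts and is also abundant in red cells, has 2 probe sets. The dimmer one gave 166, 425 and 1213 in young rats at 3 days, 1 week and 2 weeks and 34, 137 and 282 in adult rats, a log2 difference of -2.01 with an adjusted p of 0.00866 by limma. The brighter one gave 1063, 2048, 5536, 6062 and 8048 in young and 235, 807, 1863, 4154 and 5703 in adult rats over the 5 times. Its log2 difference of -1.70 over the first 3 times was not called, at an adjusted p of 0.243. Slc40a1 is ferroportin, which exports iron from cells. Its called probe set gave 357, 1080.1 and 846 in young and 117, 315 and 250.2 in adult rats at these times, a log2 difference of -1.72 with an adjusted p of 0.00866, and its brighter probe set a log2 difference of -1.59 with an adjusted p of 0.183. At 6 weeks the called probe set was level, at 557 in young and 559.9 in adult rats. When only the 4069 probe sets whose mean signal reached 200 were tested, 5 were called, namely both probe sets of Car2, both of Slc40a1 and that of Bglap, described next. Neither Car2 nor Slc40a1 was called with the adult and young arrays fitted alone, or with the Gapdh ratio as a covariate, and no probe set was called when any 1 of the 5 times was left out.

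Most bone matrix genes were close in level, and those that departed lay mainly higher in young rats. Bglap, osteocalcin of mature osteoblasts, gave 9691 at day 3, 11944 at week 1, 23399.5 at week 2, 23631 at week 4 and 23623 at week 6 in young rats. The corresponding adult values were 4217, 5681, 12507, 16362 and 22887, below the young value at each time and closing on it by 6 weeks. The log2 difference was -1.06 ± 0.17 (SE) over 3 days to 2 weeks, with an unadjusted p of 4.97e-04, and -0.29 ± 0.21 (SE) at 4 and 6 weeks. Spp1, osteopontin of osteoblasts, osteoclasts and macrophages, gave 13444, 11788, 19625, 14849.8 and 11583 in young and 8942, 8012, 11624, 7409.7 and 9751 in adult rats, a log2 difference of -0.63 ± 0.13 (SE) over the 5 times and -0.63 without the 4- and 6-week arrays, with unadjusted p of 0.00111 and 0.00249. Over the 5 times, 2 of the 13 genes of the list had an unadjusted p under 0.05 higher in young rats (background 3.90%). In favour of adult rats the count was 0 (background 4.51%). Over 3 days to 2 weeks the counts were 3 (background 2.89%) against 0 (background 2.29%). At 4 and 6 weeks they were 4 (background 4.57%) against 1 (background 8.66%). In the fit without the 4- and 6-week arrays they were 4 (background 2.76%) against 0 (background 2.39%). The list median of -0.25 over the 5 times did not hold up: it was -0.06 without the 4- and 6-week arrays, -0.05 without 4 weeks alone and -0.15 without 1 week, against 0.01 over the 5 times for all probe sets.

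The main cartilage genes had their highest signals at the same times in both ages. Col2a1, the main collagen of cartilage, gave 773 at day 3, 11491 at week 1, 15004 at week 2, 3765 at week 4 and 128 at week 6 in young rats. In adult rats it gave 709, 5750.5, 15934, 3816 and 4045. The peak was at 2 weeks in both, at 15004 and 15934, and the ages parted at 6 weeks, where the young signal was 128 and the adult 4045. Col10a1, of hypertrophic cartilage, likewise peaked at 2 weeks at 5009 in young and 6490.4 in adult rats, and Acan, the large cartilage proteoglycan, at 1 week at 2412 and 2302. At 6 weeks both were lower in young rats, at 9.9 against 324 for Col10a1 and 22.3 against 312 for Acan. That difference lies on the array with the highest Gapdh ratio, 6.57, and the part of RNA quality in it was not tested. Col11a1, a minor cartilage collagen, was higher in young rats at all 5 times (log2 difference -0.47 ± 0.12 (SE), unadjusted p 0.00306, adjusted p 0.354 by limma, and -0.47 without the 4- and 6-week arrays, unadjusted p 0.0315). Cnmd, chondromodulin, was so too, by -0.73 and -0.37, with no p under 0.05. Of the 9 genes of the list, 1 had an unadjusted p under 0.05 higher in young rats over the 5 times (background 3.90%). In favour of adult rats the count was 0 (background 4.51%), and both counts were the same without the 4- and 6-week arrays. The list median changed sign, from 0.30 over the 5 times to -0.35 without these arrays and -0.25 without 6 weeks alone.

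Genes of red cell formation were back at high signals by 2 weeks in young rats and by 4 weeks in adult rats. At 2 weeks the median of the 10 erythroid genes was -2.04, against 0.01 at 1 week and -0.46 at 4 weeks. Alas2, the first enzyme of heme synthesis in red cells, gave 786 at day 3, 462 at week 1, 6788 at week 2, 7189.9 at week 4 and 11035 at week 6 in young rats. The adult signals were 541, 546, 645, 4469.5 and 7234. Before fracture it gave 7118 in young and 14099 in adult rats, and at 2 weeks the young array alone was again near that level. Slc4a1, which exchanges anions across the red cell membrane, was 3204 in young and 182 in adult rats at 2 weeks, and Gata1, a transcription factor of the lineage, 648 and 78.3. Tfrc, the transferrin receptor, was lower in adult rats at all 5 times, with 223, 730.0, 996, 893 and 552 in young and 134, 222, 352, 727 and 549 in adult rats. None of the 10 genes was called, but all 10 had a fitted difference below 0 over the 5 times, 3 of them with an unadjusted p under 0.05 (background 3.90%), and the list median was -0.84. With the 4- and 6-week arrays left out the median was -1.09 and 1 gene had such a p. Without the pair of arrays at 2 weeks the median over the remaining times was -0.51.

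Mast cell and granulocyte genes also lay lower in adult rats, without passing the test over the 5 times. Of 16 mast cell genes, 15 had a fitted difference below 0 over the 5 times and 5 an unadjusted p under 0.05 in that direction (background 3.90%), with a median of -0.44. In the fit without 4 and 6 weeks 2 had such a p (background 2.76%) and the median was -0.46. By time, the mast cell difference was widest at 2 weeks, where the median was -1.16, with 14 genes lower in adult rats and 0 higher. Earlier it was slight: the 3-day median was -0.08 and the 1-week median 0.00, the latter with 5 genes on each side. The 4-week and 6-week medians were -0.25 and -0.54. With the 2-week arrays left out, the median over the remaining times was -0.32. Cpa3, the mast cell carboxypeptidase, gave 54.6 at day 3, 102 at week 1, 673 at week 2, 1018 at week 4 and 779 at week 6 in young rats. The corresponding adult values were 14.7, 50.2, 187.5, 1002 and 518, lower at each time and nearly level at 4 weeks, for a log2 difference of -1.44 ± 0.22 (SE) over 3 days to 2 weeks (unadjusted p 3.62e-04). Its lowest adult signal lay under the value of 20 at which signals were set, so that the size of the difference at 3 days depends on that floor. Of the 16 mast cell genes, only Cpa3 was lower in adult rats at all 5 times. Among 9 neutrophil and eosinophil genes, 4 had an unadjusted p under 0.05 lower in adult rats (background 3.90%) and 1 higher (background 4.51%), with a median of -1.08. Without the 4- and 6-week arrays 0 did so lower and 1 higher, and the median was -0.74. S100a8, a calcium-binding protein of neutrophils, gave 3340.4, 521, 602, 8570.4 and 14169.8 in young and 434, 603, 158, 2094 and 4261 in adult rats, with the widest gaps at 3 days (-2.94 on the log2 scale) and 4 weeks (-2.03) and no gap in that direction at 1 week (0.21). Cxcr2, a chemokine receptor of neutrophils, went the other way, at signals of no more than 93.9 in either age.

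**Figure D4:**
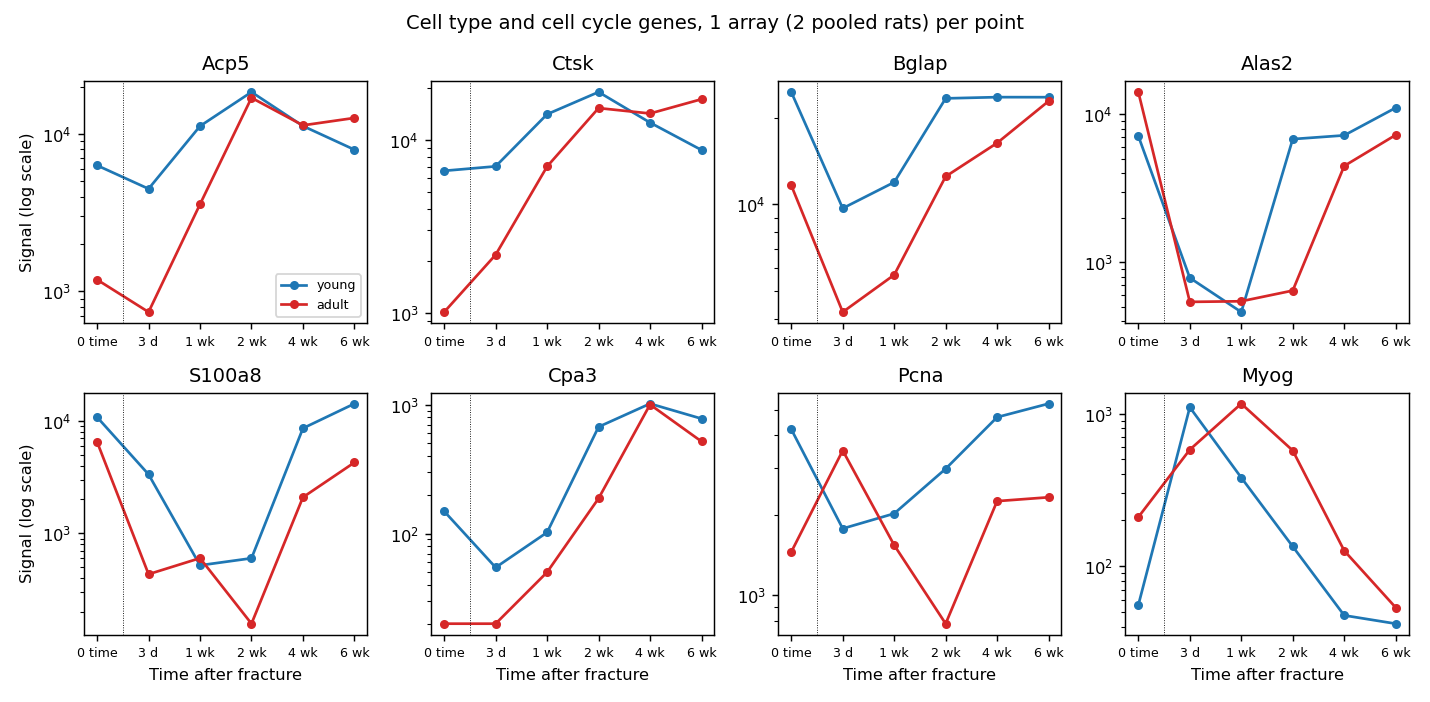
Signal on a log scale (values under 20 drawn at 20) against time after fracture for 8 genes of osteoclasts (Acp5, Ctsk), osteoblasts (Bglap), red cells (Alas2), neutrophils (S100a8), mast cells (Cpa3), dividing cells (Pcna) and regenerating muscle (Myog), 1 array per point with no error bar. Acp5 and Ctsk of adult rats (red) start below those of young rats (blue) and meet them at 2 weeks, Alas2 parts at 2 weeks (6788 against 645), and Myog peaks at 3 days in young and at 1 week in adult rats.

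Genes of cell division lay lower in adult rats at 2 weeks and after, and none was called over the 5 times. The median of 28 cell cycle genes was 0.45 at 3 days, -0.99 at 2 weeks and -0.58 at 6 weeks, and 24 of the 28 had a fitted difference below 0 over the 5 times, 4 with an unadjusted p under 0.05 (background 3.90%). The median over the 5 times was -0.36, and it was -0.16 without 2 weeks and -0.57 without 3 days. Without the 4- and 6-week arrays it was -0.26 and 0 of the 28 had such a p. Pcna, the sliding clamp of DNA replication, gave 1779 at day 3, 2027 at week 1, 2991 at week 2, 4684 at week 4 and 5268 at week 6 in young rats. In adult rats it gave 3506, 1540.5, 779, 2259 and 2335, so that adult rats were higher at 3 days and lower at every later time. Mcm6, of the replicative helicase, was 1232 in young and 713 in adult rats at 2 weeks and 2163 and 701 at 6 weeks. Ccnd1, cyclin D1, differed in direction from these, higher in adult rats over the 5 times (log2 difference 0.58 ± 0.18 (SE), unadjusted p 0.0115) and by 0.44 without the 4- and 6-week arrays (unadjusted p 0.0718). The erythroid list, too, had its widest difference at 2 weeks, and its part in the cell cycle difference was not tested.

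Genes of regenerating muscle lay higher in adult rats before fracture and at 1, 2 and 4 weeks after it, none of them past the test over the 5 times. Among 15 genes of regenerating or denervated muscle, all 15 had a fitted difference above 0 over the 5 times and 5 an unadjusted p under 0.05 (background 4.51%), with a median of 0.48. The median was 0.55 without the 4- and 6-week arrays, where 3 had such a p (background 2.39%), and 0.24 without 1 week. By phase, over 3 days to 2 weeks, 3 of the 15 had an unadjusted p under 0.05 in that direction (background 2.29%). On the 0 time arrays the list median was already 0.54, with 10 genes higher in adult and 4 in young rats. At 3 days it was -0.18, with 10 higher in young and 4 in adult rats. The median change from the own 0 time control was -0.25. Myog, the transcription factor myogenin, gave 1099.9 at day 3, 380.2 at week 1, 134 at week 2, 47.5 at week 4 and 41.9 at week 6 in young rats. The adult signals were 579.8, 1162, 572, 126 and 53.5: its highest signal after fracture was at 3 days in young and at 1 week in adult rats. Chrna1, the muscle acetylcholine receptor subunit, was likewise highest at 3 days in young rats (933) and at 1 week in adult rats (2449). Neither gene had an unadjusted p under 0.05 over the 5 times, and in both the ages crossed. Des, desmin, the intermediate filament of muscle, did not cross, with 3937, 3420.3, 1191, 1574 and 1565 in young and 4869, 7489.8, 5595, 5049 and 4529 in adult rats. Its log2 difference was 1.38 ± 0.29 (SE), at an unadjusted p of 0.00104, and 1.22 without the 4- and 6-week arrays. Before fracture Des was 1829 in young and 11856 in adult rats, so the difference was present in unfractured tissue as well.

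Of 33 genes of mature muscle fibres, 5 had an unadjusted p under 0.05 higher in adult rats (background 4.51%), 0 lower, and the median over the 5 times was 0.08. Without the 4- and 6-week arrays the count was 3 and the median 0.05, and the median was -0.02 without 2 weeks and 0.01 without 4 weeks. By time the median ran from -0.16 at 3 days to 0.63 at 2 weeks, and how much muscle each dissected sample held was not measured. Smooth muscle and pericyte genes were steadier, with 6 of 10 higher in adult rats at all 5 times, where 4.28% of all probe sets were. Des is among these, and it is also in the lists of regenerating muscle and of muscle fibres, so the lists are not independent. The smooth muscle list median was 0.43, and 0.41 without the 4- and 6-week arrays. Over the 5 times 4 of the 10 had an unadjusted p under 0.05 higher in adult rats (background 4.51%) and 0 lower (background 3.90%). In the fit without these arrays 3 had such a p higher in adult rats (background 2.39%) and 1 lower (background 2.76%). Acta2, smooth muscle actin, which healing fibroblasts also make, gave 4306 at day 3, 3679 at week 1, 3455 at week 2, 1711 at week 4 and 1465 at week 6 in young rats. The corresponding adult values were 6154, 6083, 5074, 2612 and 3733, higher at each time, with a log2 difference of 0.75 ± 0.16 (SE) and an unadjusted p of 0.00127, and 0.60 without the 4- and 6-week arrays (unadjusted p 0.0164). Its 2 other probe sets differed by 0.38 and 0.90 in the same direction, each lower in adult rats at 1 week. Itga7, a laminin-binding integrin of muscle, gave 1634, 920.2, 849, 787 and 880.1 in young and 1838, 2201, 1848, 1170.4 and 1294 in adult rats, and its 3 probe sets differed by 0.74, 0.66 and 0.93. Csrp1, an actin-associated protein, was higher in adult rats by 0.49 ± 0.12 (SE) (log2). In the fit without 4 and 6 weeks the first probe set of Itga7 differed by 0.85 and Csrp1 by 0.38, the latter at an unadjusted p of 0.0675. Myl9, a light chain of smooth muscle myosin, went against the list over 3 days to 2 weeks (-0.92) and with it at 4 and 6 weeks (1.30).

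The other lists are given more briefly. Ribosomal protein genes had a median of -0.08 over the 5 times. At 4 and 6 weeks 10 of 33 were lower in adult rats at an unadjusted p under 0.05 (background 4.57%), with 0 higher. The 10 ran from -0.66 for Rpl22 to -0.31 for Rpl21. That count, like the one for the TGF-beta and BMP system below, rests on the young arrays with raised Gapdh ratios. Without the 4- and 6-week arrays the ribosomal median was 0.01. In that fit 2 genes had such a p higher in adult rats (background 2.39%) and 1 lower (background 2.76%). Interferon-induced genes had a median of -0.74 at 4 weeks and between -0.09 and 0.01 at the other 4 times. Over the 5 times it was -0.24, and -0.05 without 4 weeks. Rsad2, an antiviral protein, was 3548 in young and 117 in adult rats at 2 weeks. The list did not share that gap: its 2-week median was 0.00, with 7 genes higher in young and 8 in adult rats. Medians over the 5 times were 0.11 for 35 genes of the TGF-beta and BMP system, of which 7 had an unadjusted p under 0.05 higher in adult rats at 4 and 6 weeks (background 8.66%), 0.05 for 15 of the insulin-like growth factor system, 0.06 for 7 of the Wnt pathway, 0.01 for 24 matrix proteinases and inhibitors, 0.02 for 37 inflammatory cytokines and chemokines, 0.15 for 12 endothelial genes and -0.24 for 12 of monocytes and macrophages. The lists of lymphocytes, nerve, fat, glycolysis, fatty acids, sterols, antigen presentation, stress and immediate early genes had medians between -0.36 (5 B cell genes) and 0.18 (14 glycolytic genes).

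At 4 and 6 weeks more probe sets passed the test. By limma, 65 of 8740 (0.744%) reached an adjusted p under 0.05, 44 higher in adult and 21 higher in young rats. After quantile normalization the split was 20 and 23, and after scaling each array to its median 7 and 18, so the excess of adult-higher calls depended on the scaling. These calls rest on the young arrays with Gapdh ratios of 3.48 and 6.57. For the 44 the median change from the first 3 times to 4 and 6 weeks was -1.93 (log2) in young against -0.23 in adult rats. For the 21 it was 1.14 in young against 0 in adult rats. The probe sets were picked for a gap at 4 and 6 weeks, so a gap between these changes is in part built in. Mxd4, a partner of Max that opposes Myc, gave 879 at day 3, 740.5 at week 1, 809.9 at week 2, 81.9 at week 4 and 23.0 at week 6 in young rats. In adult rats it gave 598, 899.8, 626, 803 and 445. Only the young 4- and 6-week values stood apart, for a log2 difference of 3.78 ± 0.44 (SE) (adjusted p 0.0246). Slc6a6, the taurine transporter, Il6st, the shared receptor subunit of the interleukin-6 family, Foxs1 and Nipbl, a loader of cohesin, were also higher in adult rats, with fitted log2 differences of 2.80, 2.53, 2.50 and 2.30. At 6 weeks their young signals were 11.6, 10.3, 34.7 and 8.2. The values of Slc6a6, Il6st and Nipbl lay under the floor of 20 there, so the size of their differences depends on that floor. Over the first 3 times the log2 differences of the 4 genes lay between -0.29 and 0.17.

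The 5' Gapdh probe set moved in the same direction at these times. Its mean log2 difference was 0.41 over 3 days to 2 weeks and 1.97 at 4 and 6 weeks, while that of the 3' probe set was 0.32 and 0.36. With the Gapdh ratio as a covariate, 4 probe sets were called at 4 and 6 weeks, 3 of them among the 65, and Slc6a6 turned to -0.22. Age and RNA quality at these times cannot be told apart. Mmp14, a membrane-bound collagenase, gave 7971, 6944, 7727, 994 and 753 in young and 4726, 7112, 7920.0, 2896 and 2138 in adult rats, Fst, the activin inhibitor follistatin, 298, 220.3, 275, 137 and 142 and 321, 362, 409, 307 and 364, and Pecam1, an endothelial adhesion protein, 430.1, 513, 496, 272 and 139 and 391, 497, 531, 515 and 305. Of these 3, Fst alone did not overlap between the ages, and only narrowly, with 298 the highest young and 307 the lowest adult signal. Its log2 difference was 0.46 over the first 3 times (unadjusted p 0.0137 by limma) and 1.26 at 4 and 6 weeks.

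**Figure D5:**
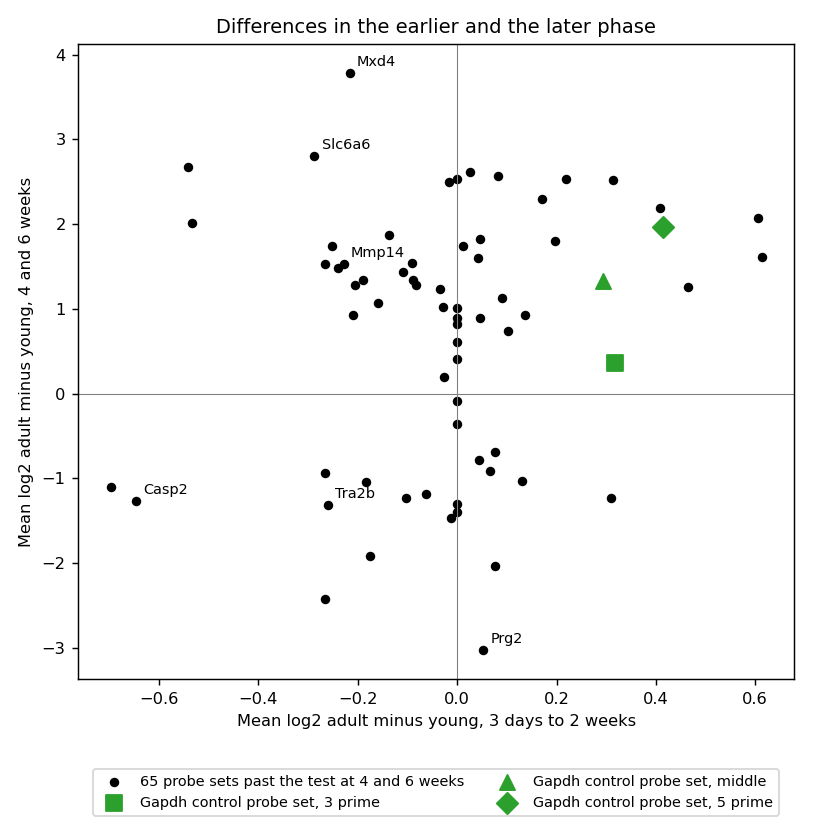
Mean log2 difference (adult minus young) at 4 and 6 weeks against that over 3 days to 2 weeks, for the 65 probe sets (black points) past the test at 4 and 6 weeks and for the 3 Gapdh control probe sets (green). Most black points lie near 0 on the horizontal axis, and the Gapdh markers climb from 0.36 (3') to 1.97 (5') on the vertical axis.

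The other 21 probe sets called at 4 and 6 weeks were higher in young rats. They rest on the same young arrays, so age and RNA quality cannot be told apart for them either. With the Gapdh ratio as a covariate, 1 probe set was called higher in young rats at these times. Prg2, the major basic protein of eosinophils, gave 33.8 at day 3, 25.2 at week 1, 35.6 at week 2, 615 at week 4 and 1079.5 at week 6 in young rats. The adult signals were 47.7, 30.2, 23.5, 43.6 and 229.5, and the log2 difference was -3.03 ± 0.44 (SE) (adjusted p 0.0439). Its 0 time signals were 2164 in young and 710.0 in adult rats, so that it lay higher in young rats before fracture too. Casp2 differed by -1.27 ± 0.12 (SE), and the RNA-processing genes Tra2b, Ythdc1 and Ddx46 by -1.32, -1.04 and -1.03. For Casp2 the early difference was -0.65, in the same direction, at an unadjusted p of 3.79e-04. For Ddx46 it was 0.13, in the other.

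The difference between the 2 phases passed the test for 4 probe sets (0.0458%), all with mean signals of 12.6 to 16.4. Dpp4 and Mfhas1 are the 2 that carry 1 gene symbol. At such signals most values had been set to 20, so no level is given for them here.

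Measured from each age's own 0 time control, 609 of 8740 probe sets (6.97%) were called by limma, 225 (2.57%) upward in adult relative to young rats and 384 (4.39%) downward. This count rests on 1 control array per age, which the fit assumed to vary like the others, so the calls have no replicate check of the 0 time gap that enters each of them. The split depended on low signals and scaling: 335 of the 609 had a mean signal under 200, and among the brighter ones it was 184 upward and 72 downward of 4069, against 236 and 231 after quantile normalization of all and 198 and 305 after median scaling. Some of the matrix genes that were lower on the adult 0 time array were among the upward calls. Fibrous matrix had 6 of 19 called upward and bone matrix 4 of 13, among them Col5a2 (log2 difference in change 2.15), Fn1 (1.77), Sparc (1.89) and Spp1 (2.18). Sparc, a collagen-binding protein of bone, was 13541 in young and 3779.9 in adult rats before fracture, and after fracture it gave 15179, 12310.1, 18716, 15503 and 13492 in young and 12276, 15178, 16719, 15422 and 18282 in adult rats. The later levels were thus alike, and the difference in change lay in the 0 time arrays.

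The secretory pathway had 5 of 26 genes called upward (background 2.57%) and 0 downward (background 4.39%). Among the 5 were Ppib (1.47) and Pdia6 (1.25), which fold collagen and other secreted proteins. In the other direction, 11 of 36 genes of mitochondrial respiration were called downward (background 4.39%) and 0 upward (background 2.57%). They ran from -0.78 for Slc25a3, the phosphate carrier, to -2.10 for Uqcrc2, a core subunit of complex III. Uqcrc2 was 962 in young and 3827 in adult rats before fracture and 1066, 1834, 1268, 1448 and 1326 and 1016, 1129, 1499, 1355 and 1419 after it. Fatty acid oxidation had 4 of 25 genes called downward (background 4.39%), Acadm (-1.48) and Acadl (-1.20) among them. Muscle fibres had 1 of 33, Car3 (-1.80), which was no excess over the 4.39% of all probe sets called downward. By size the largest upward changes among genes with a mean signal of at least 200 were Gpx7 (4.44), Irf3 (4.01) and Serpinb9, and the largest downward Trhr (-3.21), Uqcrc2 and Ppp1r1a (-2.01). Serpinb9, a protease inhibitor, was 282 in young and 14.6 in adult rats at 0 time, the latter under the floor so that no size is given, and then lay between 214 and 424 at both ages.

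The study had chosen nerve-related genes by their courses after fracture at the 3 ages, so their directions are not independent evidence. Over the 5 times, 0 of the 24 were called. Of 9 genes picked for a stronger rise in older rats, 8 had a fitted difference above 0 between adult and young rats, with a median of 0.52. At 4 and 6 weeks 2 were called (background 0.744%), which rests on the young arrays with raised Gapdh ratios. Camk2b, a calcium-dependent kinase, gave 675 at day 3, 774 at week 1, 730.3 at week 2, 335 at week 4 and 276 at week 6 in young rats. The corresponding adult values were 655, 1445, 1444, 1047 and 830.0, lower only at 3 days, and its log2 difference was 1.01 ± 0.24 (SE) over the 5 times (unadjusted p 0.00205) and 0.61 over the first 3. Thbs4, an adhesive matrix protein, gave 1312, 1908, 573, 933 and 797 in young and 1019, 2756, 2529.6, 1498 and 1999.8 in adult rats, a log2 difference of 0.86, and 0.77 without the 4- and 6-week arrays. Of 8 genes picked for a prolonged fall in older rats, 3 had an unadjusted p under 0.05 lower in adult rats (background 3.90%). Another 1, Sncg, had such a p higher in adult rats (background 4.51%). In the fit without 4 and 6 weeks 0 had such a p in either direction. Nrgn, neurogranin, gave 259, 13.1, 69.3, 320.4 and 666 in young and 108, 22.9, 30.2, 75.2 and 229 in adult rats. Of 7 picked for a stronger rise in younger rats, 6 had a fitted difference below 0 (median -0.17) and 0 an unadjusted p under 0.05, with Cdk17 at -0.32 and Ptprz1 at -0.17.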

How the data were processed

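The deposited intensities were signal values on a linear scale, 1 for each of 8799 probe sets of the Affymetrix rat genome array. The authors made them with Affymetrix Microarray Suite, which scaled each array to an average of 500, from labelled RNA of 2 rats pooled per array. The study's other sets of arrays were not analysed here.

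The 59 control probe sets were dropped, signals under 20 were set to 20, and log2 was taken of the 8740 others, of which 7006 had 1 gene symbol, 308 several and 1426 none in the platform annotation. A gene was read from its brightest probe set. Adult and young arrays were compared with limma 3.58.1 in R 4.3.3 (time and age as terms, intensity trend, Benjamini-Hochberg adjustment at 0.05), over the 15 arrays after fracture, with the older rats informing the spread only. Phases (3 days to 2 weeks, 4 and 6 weeks), their difference, and changes from the 0 time control (18 arrays) were contrasts of like fits. With floored probe sets of no spread among the 8740, limma's prior degrees of freedom were 0.959, against 4.77 among the 4069 with a mean signal of at least 200. Named genes had 1 symbol and a mean signal of at least 200 over the 10 arrays: for each direction, those called with the largest difference (up to 12 over the 5 times, 5 for a phase or the phase difference, 3 for the change), filled to 5 by lowest p where fewer passed over the 5 times; further, up to 3 called members and the first gene of a list, and the study's nerve-related genes. Other list members were named after their values were seen. The members and the 32 lists (625 of 944 genes measured) were chosen with earlier results of these data known. The fits were tested on simulated data. The number of arrays limits the precision. The labels name no batch, and no pair of arrays was identical (correlations of 0.816 to 0.978). The alternatives tried were other floors, an offset of 50, 2 normalizations, a filter at 200, no trend, 2 ages alone, the Gapdh ratio as a covariate, omitted times, no pairing by time, and the methods' t-test. Figures were drawn with matplotlib 3.10.9.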

Additional observations from a re-analysis of the deposited data

Results flagged for a closer look

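Of 66 sets of 5 values examined (the Gapdh and beta-actin ratios of each age, and the differences by time of each list and of the genes named for the size or p of their difference), 7 held 1 value whose gap to the nearest other exceeded 0.71 of the range. Chance gives about 1 such set in 20. The erythroid median stood apart at 2 weeks, at -2.04, with the other 4 times between -0.50 and 0.01. Gpx7, an oxidoreductase of the endoplasmic reticulum, stood apart at 6 weeks with a log2 difference of 2.21, where the young signal was 141 and the adult 655, on the young array with the Gapdh ratio of 6.57. Paip1 did so at 6 weeks in the other direction, at -1.15. The interferon-induced median stood apart at 4 weeks (-0.74), that of the inflammatory cytokines and chemokines at 3 days (0.18), that of fatty acid oxidation at 4 weeks (0.17), and that of the nerve-related genes with a stronger rise in older rats at 3 days (-0.36).

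The adult-to-young difference itself differed between 4 and 6 weeks and the 3 earlier times for 4 probe sets by limma (adjusted p of 3.87e-07 to 0.0205): Dpp4 by -1.30 (log2), 2 probe sets with no symbol by -1.40 and 0.61, and Mfhas1 by 0.42. Their mean signals of 12.6 to 16.4 lay below the floor of 20.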

How the results depend on the processing

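The absence of calls over the 5 times held in all alternatives run except 2: Akip1, at a mean signal of 77.5, was called lower in adult rats after quantile normalization (1 call) and median scaling (1 call). Paired by time is the main setting; with no replicate block for time there were 0 calls, with 204 and 121 probe sets at an unadjusted p under 0.05, and without each time in turn the calls ran from 0 to 0. Over 3 days to 2 weeks the 2 calls became 4 with an offset of 50, 1 with median scaling, 5 among signals of at least 200, 0 with the 2 ages alone and 0 with the Gapdh ratio as a covariate (at an unadjusted p under 0.05, 186 higher in adult and 252 in young rats for the former, 240 and 241 for the latter), and 0 to 0 without each time in turn. At 4 and 6 weeks the 65 calls became 43 with quantile normalization, 25 with median scaling, 111 among signals of at least 200, 7 with the 2 ages alone and 4 with the Gapdh ratio as a covariate, under which Slc6a6 turned to -0.22. Without 1 time in turn they ran from 4 to 256: 5 without 3 days, 4 without 1 week, 9 without 2 weeks, 256 without 4 weeks and 198 without 6 weeks, where 1 time was left in the phase and was assumed to vary like the others. The 4 calls of the phase difference became 9 with a floor of 1, 0 with an offset of 50 (564 and 209 at an unadjusted p under 0.05), 2 with quantile normalization, 17 among signals of at least 200 and 3 to 196 without each time in turn, the highest without 4 weeks (196) and without 6 weeks (168). The 609 calls of the change from the 0 time control became 197 with a floor of 1, 326 with an offset of 50, 256 among signals of at least 200 and 329 with the 2 ages alone, and 459 to 622 without each time in turn; without the 4- and 6-week arrays at all ages they were 657, and without the young ones alone 698. Igfbp1, called at -0.06 from signals near the floor, turned to 0.045 with a floor of 1 and 0.023 with quantile normalization. The cause of these shifts was not tested. The median of all probe sets at 4 and 6 weeks was 0.05, and 0.26 with the Gapdh covariate. For the change it was -0.08, and -0.20 with a floor of 1.

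Of 806 values of 56 called results for named genes under the alternatives, 524 stayed past the threshold in the same direction, 279 kept the direction alone and 3 turned. Of 1109 values of 66 results that were not called, 0 passed the threshold and 56 had the other direction. Of 576 list medians recomputed, the mean of all probe sets of a gene in place of the brightest included, 556 moved by less than their spread across the 5 times.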
